A study of Mus musculus with 4 samples.

Results

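The genes described here flank Cd1d1 on mouse chromosome 3. Cd1d1 encodes CD1d, which displays lipids on the cell surface for recognition by natural killer T cells. The 55 genes were listed by their place near Cd1d1, not by their level. In the RefSeq gene order 10 of them come before Cd1d1, among them Sfrp2 and Fbxw7, and 45 after it, among them Kirrel, Lmna and Thbs3. Under the rule that a probe set must carry a single gene symbol, 51 of the 55 were measured, out of 18820 genes on the array. Of the other 4, Mnd1, Arhgef11 and Mrpl24 share their probe sets with another symbol, and Ash1l has no probe set listed under its symbol. A filter on low signal left 35 of the 51 for testing, out of 11292 genes in all.

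RNA of epididymal fat, a visceral depot of male mice, was hybridised to 4 whole-transcript arrays. CD1d-/- mice eating the low-fat diet (10 kcal% fat) gave 2 arrays, called KO array 1 and KO array 2. Wild type (WT) C57BL/6J mice gave 1 array after the high-fat diet (45 kcal% fat) and 1 array after the low-fat diet. Diets began at 10 to 11 weeks of age and lasted 18 to 19 weeks. The null allele had been crossed back to C57BL/6J for 10 to 12 generations. The strain in which it was made is not given in the sources used here. Each array held pooled RNA, from 4 to 6 mice per group, and it is not stated if the pools behind both KO arrays were separate. P-values therefore measure only the spread between these arrays, which may be technical, and the wild type values have no replicate.

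A gene disrupted by targeting is passed on together with its close neighbours on the chromosome, because recombination seldom falls between them. After repeated crossing to another strain, the neighbours can therefore still be those of the strain in which the allele was made. The genes around Cd1d1 do not form a pathway. They serve Wnt signalling, the extracellular matrix, membrane traffic, splicing, chromatin, protein folding and the mitochondria, and several are best known from neurons, epithelia or lymphocytes.

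All levels below are intensities in log2 units, and a difference is one such level minus another. Over the 11228 tested genes outside the stretch around Cd1d1, the median difference from the WT low-fat array was −0.175 on KO array 1 and −0.023 on KO array 2, so a small negative difference on KO array 1 was common across the array. All 7 adipocyte markers, among them Adipoq (adiponectin) at 13.19 and 13.03 on KO arrays 1 and 2 against 13.09 and 13.18 on the WT high-fat and low-fat arrays, were above the array median of all probe sets. The summed intensity of 6 epididymal markers was 102 and 655 on KO arrays 1 and 2, against 86.7 on the WT high-fat and 8868 on the WT low-fat array. That of 7 macrophage markers was 6474 and 13360 on KO arrays 1 and 2, against 14680 and 8166 on the WT high-fat and low-fat arrays. In pooled whole tissue, fewer cells of a type and less RNA per cell cannot be told apart.

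The disrupted gene itself separated the genotypes. Cd1d1 (Entrez gene 12479, probe set 10499160) was at 3.74 and 3.98 on KO arrays 1 and 2, against 11.80 on the WT high-fat and 11.80 on the WT low-fat array. The difference from the WT low-fat array was −7.95 (standard error 0.32), and limma gave an adjusted p = 0.00646. Without the low-signal filter its adjusted p was 0.0932. The KO levels lie near the bottom of the scale, so the 247-fold difference is read as a lower bound.

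The comparison of KO and wild type fat asks which of the neighbours also differed. Among the 35 tested genes, 2 stood apart from both wild type arrays by at least 1.5-fold on both KO arrays, against 0.434% of all tested genes. They were Sfrp2 and Thbs3, both lower than on either wild type array. Sfrp2 encodes a secreted Frizzled-related protein that binds Wnt ligands and is made by stromal cells of fat, and Thbs3 encodes thrombospondin 3, a secreted glycoprotein of the extracellular matrix. The other 33 did not reach this size. Below both wild type arrays by any amount were 14 of the 35, Sfrp2 and Thbs3 included, against 25.2% of all tested genes. The KO mean was within 0.25 of the WT low-fat level for 25 of the 35. The median size of that difference was 0.15 for the list and 0.15 for tested genes outside the stretch.

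Sfrp2 (Entrez gene 20319, probe set 10492798) was at 7.78 and 7.48 on KO arrays 1 and 2, against 8.89 on the WT high-fat and 8.96 on the WT low-fat array. Both KO values lay below both wild type values, and the diets differed by only −0.07. The KO mean of 7.63 ± 0.21 (SD, n = 2) was 1.33 below the WT low-fat level, a 2.52-fold lower intensity, and 2.40-fold below the high-fat level. In limma the difference of −1.33 had a standard error of 0.33, an unadjusted p = 0.00733 and an adjusted p = 1, so it did not pass the threshold of 0.05.

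Thbs3 (Entrez gene 21827, probe set 10493449) was at 6.08 and 6.26 on KO arrays 1 and 2, against 7.30 on the WT high-fat and 7.26 on the WT low-fat array. Again both KO values lay below both wild type values, with a difference of 0.05 between the diets. The KO mean of 6.17 ± 0.13 (SD, n = 2) was 2.12-fold below the WT low-fat and 2.19-fold below the high-fat intensity. The difference of −1.08 had a standard error of 0.31, an unadjusted p = 0.0150 and an adjusted p = 1 in limma. Mtx1, the measured gene just before Thbs3 in order, encodes a mitochondrial import protein and is transcribed away from Thbs3. The RefSeq starts of both genes are 1273 bases apart. Mtx1 was at 8.45 and 8.11 on KO arrays 1 and 2, against 8.14 and 8.25 on the WT high-fat and low-fat arrays, so its groups overlapped.

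**Figure D1:**
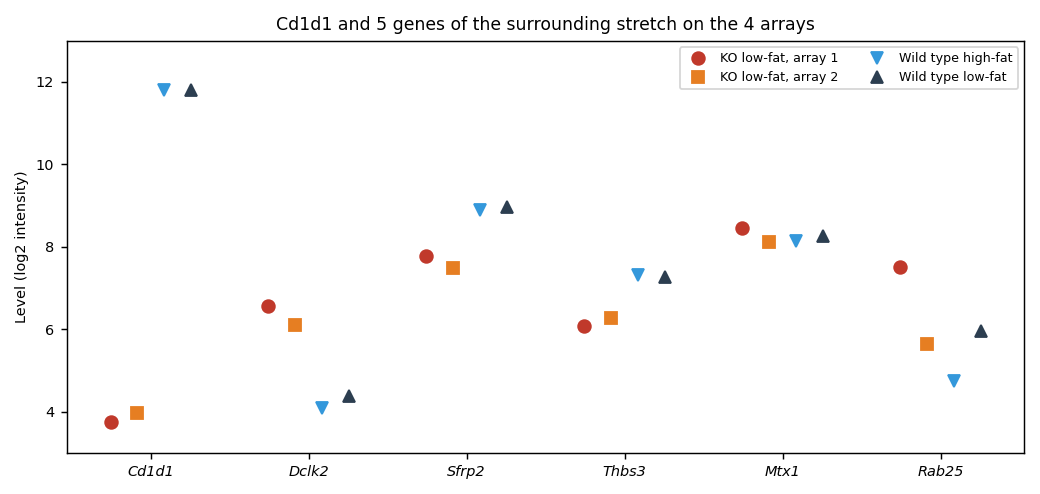
Level (log2 intensity, vertical axis) of Cd1d1 and 5 genes of the stretch around it, with 1 point per array: the 2 KO low-fat arrays, the WT high-fat and the WT low-fat array, from left to right. Sfrp2 and Thbs3 are lower and Dclk2 is higher on both KO arrays than on both wild type arrays, while the groups overlap for Mtx1 and Rab25.

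The promoters of Sfrp2 and Thbs3 are shown because they are the listed genes that stood apart from wild type by at least 1.5-fold on both KO arrays. They are the 250 bases before the RefSeq start on build GRCm38.p6, chr3:83766071-83766320 for Sfrp2 and chr3:89214930-89215179 for Thbs3, both on the plus strand. Capitals mark every match, searched on both strands, to the CCAAT box, to the GC box spelled GGGCGG, to the TATA motif spelled TATAAA or to the E-box spelled CANNTG. No matches overlap.
Sfrp2: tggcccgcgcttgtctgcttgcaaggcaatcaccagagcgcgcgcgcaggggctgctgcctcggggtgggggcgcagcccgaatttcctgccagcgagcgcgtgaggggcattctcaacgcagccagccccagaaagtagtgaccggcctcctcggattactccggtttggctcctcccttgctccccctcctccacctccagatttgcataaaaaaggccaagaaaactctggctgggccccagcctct
Thbs3: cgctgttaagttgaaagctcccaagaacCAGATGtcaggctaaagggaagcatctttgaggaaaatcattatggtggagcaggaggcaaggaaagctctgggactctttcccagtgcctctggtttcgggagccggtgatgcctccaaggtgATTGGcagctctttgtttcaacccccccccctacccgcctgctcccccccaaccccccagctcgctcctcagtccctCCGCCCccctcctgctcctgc
The Thbs3 window held a CCAAT box that begins 98 bases before the start and a GC box that begins 21 bases before it, both on the minus strand, and an E-box that begins 222 bases before it. The Sfrp2 window held none of the 4 motifs. Of 32851 mouse promoter windows of the same length, 33.8% held a CCAAT box, 32.7% a GC box, 12.4% a TATA motif and 66.2% an E-box. The share of G and C was 63.6% for Sfrp2 and 58.8% for Thbs3, against a median of 52.4% over all windows.

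Both genes were set against the whole table by size. At least 1.5-fold apart from the WT low-fat array in 1 direction on both KO arrays were 2 of 35 listed genes, Sfrp2 and Thbs3, both lower, against 1.35% of all tested genes (0.584% higher and 0.77% lower). A stricter count asks that both KO arrays lie outside the range of both wild type arrays by at least 1.5-fold. The same 2 genes met it, both on the lower side, against 0.434% of all tested genes in either direction, 0.345% on the higher and 0.0886% on the lower side. The gap between the nearest KO and wild type arrays was −1.11 for Sfrp2 and −0.99 for Thbs3. By this gap Sfrp2 was the 5th and Thbs3 the 6th lowest of 11292 genes. Of the 10 genes on the lower side, 3 were of the stretch between the first and last measured member, namely Cd1d1, Sfrp2 and Thbs3, and the 7 others were on other chromosomes. Cd1d1 is the disrupted gene itself. Of the 39 tested genes on the higher side, 0 were of the stretch. With the genes under the filter included, 1 of 90 on the higher side was of the stretch. It was Dclk2, described below, whose gap of 1.73 was the widest on that side among 18820 measured genes. Of the 28 other tested genes of the stretch, 0 met the gap in either direction. That stretch held 64 of the 11292 tested genes. These counts are a description of 4 arrays and not a test.

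**Figure D2:**
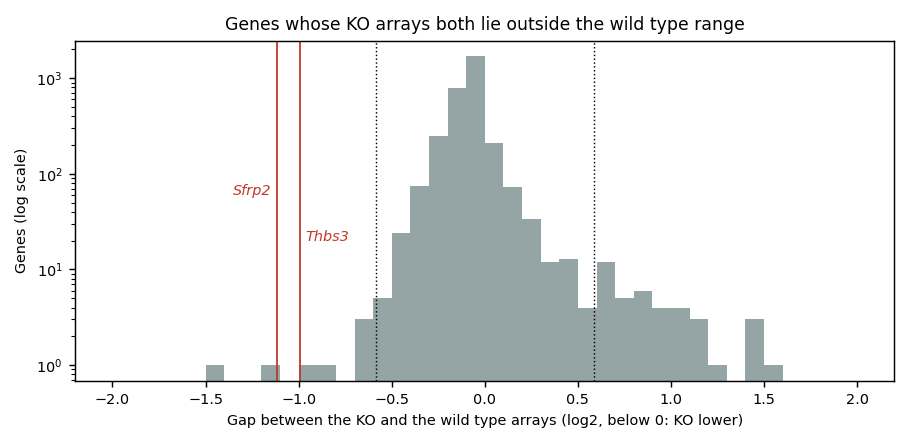
Number of tested genes (vertical axis, log scale) by the gap between the KO arrays and the wild type arrays (horizontal axis, log2), for the 3223 genes whose KO arrays both lay above or both below the wild type arrays, with Cd1d1 and 2 further genes beyond the axis left out. Dotted lines mark 1.5-fold, and the vertical lines at −1.11 and −0.99 show Sfrp2 and Thbs3.

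No listed gene passed limma's threshold. The 3-group fit called 0 of 35, against 0.0443% of all tested genes, with 2 at an unadjusted p under 0.05 (Sfrp2 and Thbs3, against 0.815% of all). A second fit set both KO arrays against both wild type arrays, leaving the diet in the spread. It also called 0 of 35, against 0.00886% of all tested genes, with 3 at an unadjusted p under 0.05 (Sfrp2, Thbs3 and Syt11, against 1.54% of all). In that fit the difference was −1.30 for Sfrp2 (standard error 0.17, adjusted p = 0.970) and −1.11 for Thbs3 (standard error 0.15, adjusted p = 0.970). In simulated data the first fit called 0 of 50 genes changed 2-fold, and the second 0 of 50. The simulation used the spread of the first fit for both, with no diet difference and no shift between arrays. The count for the second fit is therefore not for data like those it was given here.

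Markers of the stromal cells that make Sfrp2 were read on the same arrays. The summed intensity of 5 progenitor and fibroblast markers was 8091 and 10210 on KO arrays 1 and 2, against 10360 and 9261 on the WT high-fat and low-fat arrays, so the groups overlapped. This sum mostly follows Dcn, by far the brightest of them. Dcn was at 12.74 and 13.03 on KO arrays 1 and 2, against 12.99 and 12.86 on the WT high-fat and low-fat arrays. Of the 5, Dpp4 and Pi16 lay below both wild type arrays on both KO arrays, with gaps of −0.12 and −0.40, while Pdgfra, Col1a1 and Dcn did not. The summed intensity of 4 mesothelial markers was 587 and 1147 on KO arrays 1 and 2, against 1069 and 1184 on the WT high-fat and low-fat arrays, and 2 of the 4 lay below both wild type arrays on both KO arrays. None of the 9 markers did so by 1.5-fold or more. The part of these cells in the Sfrp2 and Thbs3 values was not tested.

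None of the 4 listed and measured genes nearest Cd1d1 on either side met the 1.5-fold gap, though the differences of Tmem154 and Etv3 from the WT low-fat array, −0.45 and −0.36, were among the 10 largest of those listed genes whose KO arrays both lay on 1 side of that array. Before it lie, from the nearest, Fbxw7, the substrate receptor of a ubiquitin ligase, Tmem154, a membrane protein, Tigd4, derived from a transposase, and Arfip1, which binds Arf and Rac GTPases. Fbxw7 was at 5.61 and 5.84 on KO arrays 1 and 2, against 5.97 and 5.69 on the WT high-fat and low-fat arrays. Tmem154 was at 6.50 and 6.34 on KO arrays 1 and 2, against 6.29 and 6.86 on the WT high-fat and low-fat arrays. Arfip1 was at 7.19 and 7.49 on KO arrays 1 and 2, against 7.52 and 7.46 on the WT high-fat and low-fat arrays. Arfip1 was slightly higher on the WT high-fat than on any other array, and for all 3 genes at least 1 KO array lay inside the wild type range. Tigd4 was at 3.83 and 3.90 on KO arrays 1 and 2, against 3.76 and 3.92 on the WT high-fat and low-fat arrays, under the array median throughout, and was not tested.

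After Cd1d1 come Kirrel, an adhesion protein related to nephrin, Cd5l, an apoptosis inhibitor secreted by macrophages, Fcrl1, a receptor-like protein of B cells, and Etv3, a transcriptional repressor of the ETS family. Kirrel, the next measured gene after Cd1d1, was at 8.64 and 9.18 on KO arrays 1 and 2, against 9.28 and 8.82 on the WT high-fat and low-fat arrays. Etv3 was at 9.16 and 8.93 on KO arrays 1 and 2, against 9.20 and 9.40 on the WT high-fat and low-fat arrays. Both Etv3 values of KO mice lay below wild type, with a gap of only −0.05, whereas Kirrel overlapped. Cd5l was at 4.48 and 4.88 on KO arrays 1 and 2, against 4.87 and 4.73 on the WT high-fat and low-fat arrays. Fcrl1 was at 4.74 and 4.61 on KO arrays 1 and 2, against 4.42 and 4.42 on the WT high-fat and low-fat arrays. Both genes lay under the array median of all probe sets (5.68 to 5.71) on all 4 arrays and were not tested.

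Between these neighbours lies Dclk2, a gene that is not on the list and stood apart on both KO arrays. Dclk2 encodes a doublecortin-like kinase that binds microtubules, and only the Cd1d1 copy Cd1d2 lies between it and Cd1d1 among the measured genes. Dclk2 (Entrez gene 70762, probe set 10499138) was at 6.55 and 6.11 on KO arrays 1 and 2, against 4.09 on the WT high-fat and 4.38 on the WT low-fat array. Both KO values were above and both wild type values below the array median of all probe sets, so the 3.87-fold difference from the low-fat and the 4.73-fold difference from the high-fat array are read as lower bounds. Its mean of 5.28 lay under the filter at 5.45, so it was not tested with that filter. Without the filter, and with the filter on the highest group mean, Dclk2 was tested and did not pass limma's threshold in either fit. In limma's fit of both KO arrays against both wild type arrays, its adjusted p was 0.958 without the filter. With the filter on the highest group mean it was 0.97. Cd1d2 stayed under the array median everywhere, with 4.50 and 4.18 on KO arrays 1 and 2 and 4.46 and 4.61 on the WT high-fat and low-fat arrays.

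**Figure D3:**
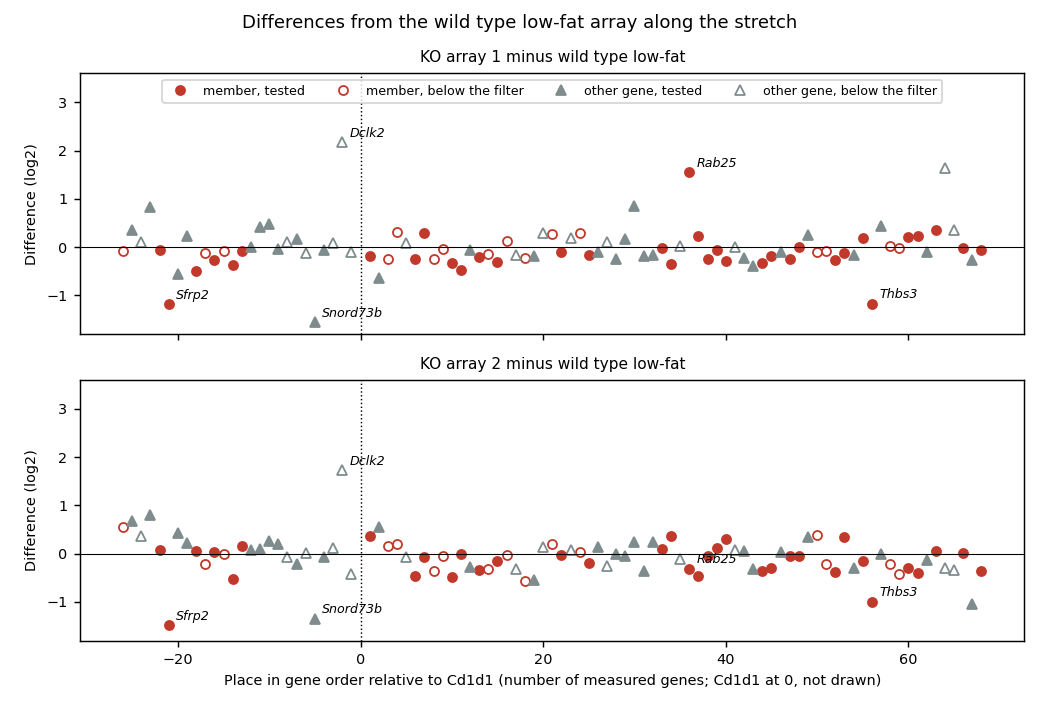
Difference from the WT low-fat array (log2, vertical axis) on KO array 1 (top) and KO array 2 (bottom) for each measured gene of the stretch, placed by the number of measured genes from Cd1d1 (horizontal axis). Circles are the listed genes and triangles the other genes, filled where tested. Sfrp2, Thbs3, Dclk2 and Snord73b keep their side on both arrays, and Rab25 does not.

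Sfrp2 and Thbs3 were not the nearest neighbours of Cd1d1. Sfrp2 is the 21st measured gene before Cd1d1 and Thbs3 the 56th after it, with genes in between whose KO and wild type levels overlap. Among the listed genes, 6 before Cd1d1 were tested and their median difference from the WT low-fat array was −0.17, while 29 after it had a median of −0.09. Over all 35 the median was −0.11, beside −0.09 over the tested genes outside the stretch. The median size of the difference, without its sign, was 0.15 for the listed genes and 0.15 for genes outside the stretch. The remaining 43 measured genes of the stretch, of which 28 were tested, had a median difference of −0.03. Among those 28, Snord73b and Fgb were at least 1.5-fold from the WT low-fat array on both KO arrays. Snord73b, a small nucleolar RNA hosted by a ribosomal protein gene, was at 7.86 and 8.07 on KO arrays 1 and 2, against 8.43 and 9.42 on the WT high-fat and low-fat arrays. Fgb, which encodes the fibrinogen beta chain, was at 7.58 and 7.56 on KO arrays 1 and 2, against 8.18 and 6.75 on the WT high-fat and low-fat arrays, so it lay between the diets.

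Each KO array was also set against each WT array singly. At least 1.5-fold from the WT low-fat array on KO array 1 were 3 listed genes, Rab25 higher and Sfrp2 and Thbs3 lower, against 6.95% of all tested genes (1.93% higher and 5.02% lower). On KO array 2 they were 2, Sfrp2 and Thbs3, both lower, against 10.1% of all (5.54% higher and 4.6% lower). Measured from the WT high-fat array, 10 listed genes were that far apart on KO array 1, against 24.8% of all (4.56% higher and 20.3% lower). Rab25 was higher there, and Sfrp2, Kirrel, Hdgf, Nes, Lmna, Arhgef2, Syt11, Scamp3 and Thbs3 were lower. On KO array 2 they were 5, Rab25 higher and Sfrp2, Nes, Syt11 and Thbs3 lower, against 2.88% of all (1.57% higher and 1.31% lower). Sfrp2 and Thbs3 appear on the lower side in all 4 of these comparisons, which share arrays. The 1.5-fold gap that both genes met already requires this.

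A weaker tendency ran through the list. Both KO arrays lay below both wild type arrays, by any amount, for 14 of 35 listed genes, and above them for 0. Over all tested genes the shares were 25.2% below and 3.41% above. After each array was centred on its median the listed genes split 7 below and 4 above, against 8.40% and 11.4% of all tested genes, so the one-sided count depended on the scaling. Apart from Sfrp2 and Thbs3 the 14 genes had small gaps, the widest being −0.33 for Syt11. The counts by role that follow are on the uncentred scale, so each is read against the 25.2% of all tested genes below wild type and depends on the scaling in the same way.

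In the group of transcription and chromatin genes, 4 of 6 tested were below wild type on both KO arrays by any amount, against 25.2% of all tested genes, and 0 of 6 passed limma. These were Etv3, Hdgf, Mef2d and Gon4l. Hdgf, a heparin-binding growth factor found in the nucleus, was at 8.90 and 9.37 on KO arrays 1 and 2, against 9.65 and 9.39 on the WT high-fat and low-fat arrays. Gon4l, a nuclear regulator of transcription, was at 7.78 and 7.65 on KO arrays 1 and 2, against 7.88 and 7.96 on the WT high-fat and low-fat arrays. These gaps, −0.02 for Hdgf and −0.10 for Gon4l, are smaller than the distance between the KO arrays. Prcc, a nuclear protein linked to splicing, had the lowest difference of the group, −0.41, but at 7.96 and 7.82 on KO arrays 1 and 2 it overlapped the wild type levels of 7.94 (high-fat) and 8.30 (low-fat). Lmna, which encodes lamins A and C of the nuclear envelope, had a KO mean 0.00 from the WT low-fat level.

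Of the RNA processing genes, 2 of 3 tested were below wild type on both KO arrays by any amount, against 25.2% of all tested genes, and 0 of 3 passed limma. Isg20l2, an exonuclease of ribosome assembly, was at 6.79 and 6.64 on KO arrays 1 and 2, against 7.16 and 6.99 on the WT high-fat and low-fat arrays. Its gap of −0.20 exceeded the 0.15 between the KO arrays. Clk2, a kinase of splicing factors, was at 8.25 and 8.13 on KO arrays 1 and 2, against 8.31 and 8.51 on the WT high-fat and low-fat arrays. Plrg1, a core splicing factor, overlapped wild type, with a difference of −0.00.

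The cytoskeleton, GTPase and trafficking group had 8 tested genes, of which 3 were below wild type on both KO arrays by any amount, against 25.2% of all tested genes. In this group 0 were above, and 0 passed limma. Syt11, a synaptotagmin that restrains vesicle traffic, was at 6.90 and 6.87 on KO arrays 1 and 2, against 7.53 and 7.23 on the WT high-fat and low-fat arrays. The KO arrays differed by only 0.03 for Syt11, and its gap was the 87th lowest of all tested genes. Nes, the intermediate filament nestin of progenitor and vessel cells, was at 5.76 and 5.91 on KO arrays 1 and 2, against 6.80 and 6.07 on the WT high-fat and low-fat arrays. Nes thus stood out by its high-fat level, and its KO mean was 0.23 below the low-fat level. Rusc1, an adaptor of vesicle transport, was the third of these genes, with a gap of only −0.0075, at 6.50 and 6.45 on KO arrays 1 and 2, against 6.91 and 6.50 on the WT high-fat and low-fat arrays.

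All 7 genes of protein folding, turnover and secretion were tested, with differences from −0.22 (Trim2, a ubiquitin ligase) to 0.03 (Fbxw7), and 0 of 7 passed limma. Ssr2, a subunit of the translocon-associated complex, had the highest mean of the list, with 10.91 and 11.08 on KO arrays 1 and 2, against 11.15 and 10.97 on the WT high-fat and low-fat arrays. Krtcap2, a subunit of the enzyme that attaches sugar chains to proteins, was at 10.76 and 10.25 on KO arrays 1 and 2, against 10.32 and 10.55 on the WT high-fat and low-fat arrays. Cct3, a chaperonin subunit, and Ubqln4, a ubiquilin, lay below wild type on both KO arrays, with gaps of −0.08 and −0.05. Of the mitochondrial genes, Dap3, a mitochondrial ribosomal protein, had a difference of −0.15 and Mtx1 one of 0.03.

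Of the 8 tested signalling and cell surface genes, 2 were below wild type on both KO arrays by any amount, Sfrp2 and Thbs3, against 25.2% of all tested genes. In this group 0 were above on both KO arrays. Adam15, a membrane-bound metalloprotease, was the steadiest, at 10.28 and 10.30 on KO arrays 1 and 2, against 10.24 and 10.29 on the WT high-fat and low-fat arrays. Efna1, the ligand ephrin-A1, had the highest difference of this group, 0.20, from levels of 6.93 and 6.61 on KO arrays 1 and 2, against 6.79 and 6.57 on the WT high-fat and low-fat arrays. The KO means of Pear1, Kirrel and Sema4a were 0.10, 0.09 and 0.04 above the WT low-fat level. The only tested gene of the immune group was Zbtb7b, the factor that directs T cells to the CD4 lineage, with a difference of −0.21.

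**Figure D4:**
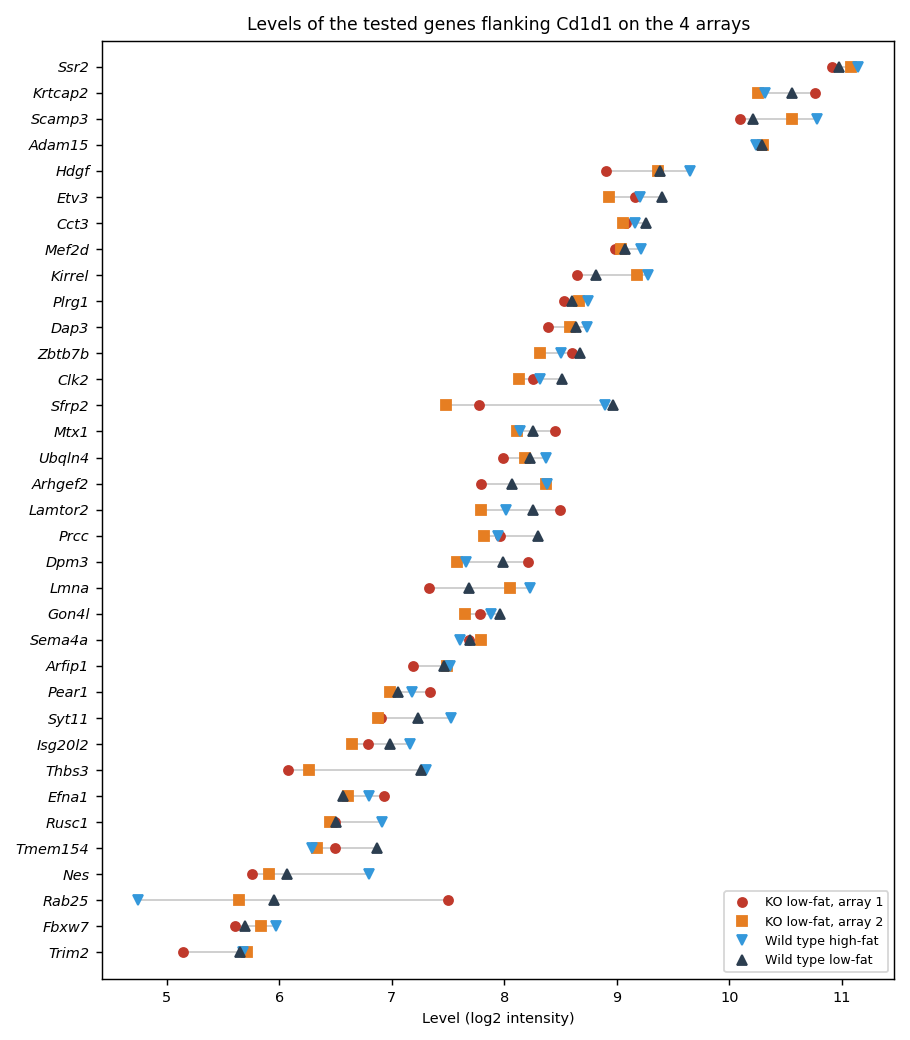
Level (log2 intensity, horizontal axis) of the 35 tested genes flanking Cd1d1, sorted by mean level, with 1 point per array for the 2 KO low-fat arrays, the WT high-fat and the WT low-fat array, and a grey line over their range. Most ranges are short. Those of Sfrp2 and Thbs3 part the KO from the wild type arrays by at least 1.5-fold, and that of Rab25 is wide without parting them.

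The 16 measured genes under the filter were between 3.61 and 5.53 on all 4 arrays. They include all 5 genes of the metabolism, retinoid and transport group: Lrat and Crabp2 of vitamin A handling, Pklr, the pyruvate kinase of liver and red cells, the ammonium transporter gene Rhbg and the ion channel gene Hcn3. The lymphocyte genes Fcrl1 and Sh2d2a, the neural genes Bcan and Trim46 and the mucin gene Muc1 were also among them. Their differences of the KO mean from the WT low-fat array ran from −0.39 (Gpatch4) to 0.26 (Fcrl1). At such levels a difference cannot be told from the floor of the scale. By mean over the 4 arrays, the gene just above the filter was Trim2, at 5.55, and the gene just below it was Gpatch4, at 5.32.

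The question how the list varied with diet in wild type fat has 1 array per group and no replicate check. Nes was 1.66-fold higher on the high-fat than on the low-fat array. Rab25 was lower on the high-fat array, where its level of 4.74 lay under the array median, so its 2.31-fold difference is read as a lower bound. These were the only 2 of 35 listed genes at least 1.5-fold apart, against 11.5% of all tested genes (7.72% higher and 3.82% lower). The next in size were Tmem154 with a difference of −0.58, Scamp3, a carrier protein of secretory membranes, with 0.57, and Lmna with 0.54. Scamp3 was at 10.09 and 10.55 on KO arrays 1 and 2, against 10.78 and 10.21 on the WT high-fat and low-fat arrays.

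Between the KO arrays, 4 of 35 listed genes were at least 1.5-fold apart, against 19.3% of all tested genes (14.8% higher and 4.45% lower on KO array 2). Lmna was higher on KO array 2: its levels were 7.33 and 8.05 on KO arrays 1 and 2, against 8.23 and 7.69 on the WT high-fat and low-fat arrays. Lower on KO array 2 were Rab25, Lamtor2, a scaffold of nutrient sensing at the lysosome, and Dpm3, a subunit of mannose donor synthesis. Lamtor2 was at 8.49 and 7.80 on KO arrays 1 and 2, against 8.01 and 8.25 on the WT high-fat and low-fat arrays. Dpm3 was at 8.21 and 7.58 on KO arrays 1 and 2, against 7.66 and 7.99 on the WT high-fat and low-fat arrays. For both genes the KO arrays lay on either side of the WT arrays. Arhgef2, a RhoA exchange factor, was next in size, at 7.79 and 8.37 on KO arrays 1 and 2, against 8.38 and 8.07 on the WT high-fat and low-fat arrays. Lmna, Kirrel, Hdgf, Scamp3 and Arhgef2 were each lowest on KO array 1 and highest on the WT high-fat array. So were Plrg1, Arfip1, Fbxw7, Nes, Mef2d, Ubqln4, Ssr2 and Dap3. The median level of all tested genes was also lowest (7.645) on KO array 1 and highest (7.923) on the WT high-fat array. So were the summed macrophage markers and the summed progenitor and fibroblast markers, but not the summed adipocyte markers. The part of macrophages, of other cells or of the shift common to the array in these values was not tested.

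Rab25, a GTPase of epithelial membrane recycling, varied most of the list. It was at 7.50 and 5.64 on KO arrays 1 and 2, against 4.74 on the WT high-fat and 5.95 on the WT low-fat array. KO array 1 alone was high. The KO mean was 0.61 above the WT low-fat level, and KO array 2 alone was at a difference of −0.31. Its limma adjusted p was 1 with both KO arrays. The summed intensity of 5 smooth muscle markers was also highest on KO array 1, at 8488 and 4262 on KO arrays 1 and 2, against 4517 and 4349 on the WT high-fat and low-fat arrays. The epididymal markers given above were instead highest on the WT low-fat array. The part of either tissue in the Rab25 values was not tested.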

How the data were processed

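Linear-scale intensities of the probe sets on each array are what the authors deposited. Per the submitters' processing notes they come from RMA in R 2.15.0. The genome build is not given in the sources used here. Of 35556 probe sets, 21218 carried a single gene symbol in the platform annotation, 1881 several and 12457 none. Of several probe sets for a gene, the one with the highest mean was kept. Intensities were put on the log2 scale without further scaling. Genes with a mean at or above the 40th percentile of gene means, 5.45, were tested: 11292 of 18820. RMA draws low signals towards a floor, so differences of dim genes are understated. The number of arrays, 4, limits the precision.

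The main fit, in limma 3.58.1 under R 4.3.3, took the 3 groups from the labels and left 1 residual degree of freedom. A second fit set KO against both wild type arrays and left 2. P-values were adjusted by Benjamini-Hochberg over all tested genes, with a threshold of 0.05. Data were simulated with the main fit's spread, no diet difference and 50 changed genes per fold size. From them the main fit recovered 0 at 2-fold, 6 at 4-fold and 42 at 8-fold. The second fit recovered 0, 37 and 49. False calls in these simulated data numbered 7 in the main fit and 6 in the second. In the real data the fits made 5 and 1 calls over all tested genes. The false calls cannot be set against these, because the adjustment depends on how many genes changed. Gene order, symbols and promoter sequences are those of RefSeq on GRCm38.p6, in which 42 of the 51 measured members had a promoter entry. Plots used Python 3.11.15 with matplotlib 3.10.9.

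The listed genes, their role groups and the marker lists were chosen with earlier results of these data known. Genes given with the value on every array are Cd1d1, listed genes called or past the 1.5-fold gap, and the 10 that differed most from the WT low-fat array with both KO arrays on 1 side of it. They also include the 4 nearest Cd1d1 on each side, the 5 most different between diets, the 5 most different between KO arrays, the 5 of highest mean level, and examples of a role group. Snord73b and Fgb fall outside this rule and were chosen after their values were seen. Alternatives changed the filter, the choice of probe set, the scaling, the variance model, the thresholds and the KO arrays used. A filter on the highest group mean was added after the data were seen.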

Additional observations from a re-analysis of the deposited data

How the results depend on the processing

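Sfrp2 and Thbs3 met the 1.5-fold gap under every filter, probe set and scaling alternative run and without either KO array. Only the scaling alternatives could have narrowed their gaps. A filter leaves levels unchanged, each of these genes has 1 probe set, and leaving out a KO array cannot narrow a gap. The gaps of Sfrp2 and Thbs3 were −0.84 and −0.95 after median centring, and −0.95 and −0.98 after quantile normalization. The number of the 35 listed genes that met the 1.5-fold gap was 2 without KO array 1, against 0.939% of all tested genes. It was 3 without KO array 2, the third being Rab25, against 4.84% of all. At 2-fold it was 1, against 0.151% of all. The count at 1.5-fold from the WT low-fat array on both KO arrays was 1 at 2-fold, against 0.381% of all tested genes. It was 5 at a lower threshold of 0.322 on the log2 scale, against 5.81%. Without KO array 1 it was 2, against 10.1%, and without KO array 2 it was 3, against 6.95%. The count outside the wild type range by any amount was 14 of 35, against 28.6% of all tested genes. After quantile normalization it was 9, against 24.2%. It was 24 without KO array 1, against 56.8%, and 30 without KO array 2, against 80.2%, where fewer arrays have to lie outside. The count between diets was 0 of 31 with the stricter filter, which leaves fewer genes tested, against 10.7% of all tested genes. It was 1 at 2-fold, against 3.82%, and 9 at 0.322 (log2), against 31.0%. Between the KO arrays the count was 1 at 2-fold, against 5.42%, and 12 at 0.322 (log2), against 44.8%. The median difference of the listed genes was −0.176 to −0.075 when 1 KO array was left out, and 0.002 after median centring, which subtracts a shift common to the array. Limma called 0 listed genes in either fit under every alternative run. Cd1d1 had a difference of −7.95 without the filter, with a limma adjusted p = 0.0932. More genes are tested there, and its unadjusted limma p was itself higher, 4.95e-06 against 5.72e-07 with the filter.

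Some differences from the WT low-fat array turned their sign, mostly small ones, but also the 0.61 of Rab25. Without KO array 1 the difference was 0.03 for Arfip1, −0.31 for Rab25, 0.15 for Fbxw7, 0.36 for Kirrel, 0.34 for Scamp3, 0.36 for Lmna, 0.30 for Arhgef2, 0.11 for Ssr2, 0.01 for Adam15, −0.46 for Lamtor2, −0.41 for Dpm3 and −0.30 for Krtcap2. Without KO array 2 it was −0.27 for Arfip1, 1.54 for Rab25, −0.08 for Fbxw7, −0.18 for Kirrel, −0.11 for Scamp3, −0.36 for Lmna, −0.28 for Arhgef2, −0.06 for Ssr2, −0.01 for Adam15, 0.24 for Lamtor2, 0.22 for Dpm3 and 0.20 for Krtcap2. After median centring, Lamtor2 was at 0.00, Dpm3 at 0.02 and Krtcap2 at 0.06. Among the values of single genes under the alternatives, 196 kept their direction and, where the main fit was run, their side of the threshold. Another 15 reversed, and 1 was weaker, that of Cd1d1 without the filter. The main fit was not run without a KO array, so only the direction was compared there. No paired analysis was possible because nothing in the labels ties a KO array to a wild type array. With 1 array for each wild type diet, the spread rests on the KO arrays in the main fit, and genes near the floor of the scale, Dclk2 in wild type among them, have only a bound.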
